A study of Mus musculus with 3 samples.

Results

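Macrophages of the mouse stomach muscle that had no captured Lyve1 or Folr2 transcript were ordered by how much of their RNA came from MHC class II genes, and the cells with the most were compared with the cells with the least. A barcode counted as such a macrophage when it held at least 2000 unique molecular identifiers (UMIs, 1 per captured RNA molecule), at most 15% mitochondrial UMIs, at least 10 UMIs of C1qa, C1qb and C1qc together, and no UMI of Lyve1 or Folr2. There were 565 of these Lyve1-negative macrophages among 5735 barcodes, 97, 213 and 255 in libraries 1, 2 and 3. The summed UMIs of H2-Aa, H2-Ab1, H2-Eb1 and Cd74 over all UMIs of the cell gave each a score. The upper tercile within each library is called MHC class II high (32, 71 and 85 cells, 188 in all), and the lower tercile MHC class II low (32, 71 and 85 cells, 188 in all). The cells were thus selected on the measured UMIs of these 4 genes and of the C1q, Lyve1 and Folr2 genes, whose values are given as a description with no test.

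MHC class II molecules present peptides from engulfed material to CD4 T cells. The invariant chain, encoded by Cd74, escorts new class II molecules to the endosome, where proteases cut it down to a short remnant that the chaperone DM exchanges for a peptide. The transactivator Ciita drives these genes together through short promoter elements, the X and Y boxes. In the gut wall, muscularis macrophages lie close to enteric neurons, smooth muscle and interstitial cells of Cajal. LYVE1 and FOLR2 are known in several tissues as marks of long-lived resident macrophages, and class II is often higher in macrophages that lack them.

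The study profiled immune cells of the gastric muscle in mice with and without diabetes, and the 3 libraries used here belong to 1 group, named NonDiabetic. They held CD45+ cells from female C57bl/6 mice, sorted after collagenase digestion of the stomach's muscle layer. The labels name no other treatment and do not say whether the libraries came from separate animals, so the p-values below weigh a difference only against how these libraries vary, and that variation may be technical. Diabetic samples were not analysed here. The 3 libraries summed to 6777422, 13336484 and 11017170 UMIs. Libraries 2 and 3 shared 33 barcodes, libraries 1 and 3 shared 1, and 7 Lyve1-negative macrophages of library 2 and 5 of library 3 carried a shared barcode. Without all shared barcodes the comparison described below called 207 genes in place of 177, and 171 of the 177 remained.

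The score itself ran over a wide range. Summed counts are given below as CPM, the UMIs of a gene scaled to 1000000 UMIs. Its median was 5.39%, 5.45% and 6.72% of a cell's UMIs on the high side of libraries 1, 2 and 3, and 1.03%, 1.65% and 1.91% on the low side. The lowest cell of the high side had 4.54%, 4.52% and 5.47%, and the next cell below it 4.50%, 4.47% and 5.47%. The highest cell of the low side had 2.18%, 2.83% and 3.17%, and the next cell above it 2.21%, 2.93% and 3.21%. The borders therefore lay within a continuous range of values and not in a gap. Cd74 had 26583, 30745 and 36063 CPM of all UMIs on the high side, against 6489, 8252 and 9113 on the low side. H2-Ab1, a beta chain of class II, had 9804, 8156 and 10237 CPM of all UMIs on the high side, against 2285, 1852 and 2362 on the low side. The low side was not devoid of class II RNA: T or NK cells of the same libraries, which should lack it, had median scores of 0.0310%, 0.0150% and 0.0125%. Macrophages with a UMI of Lyve1 or Folr2 had overall medians of 0.716%, 0.526% and 0.341%.

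**Figure D1:**
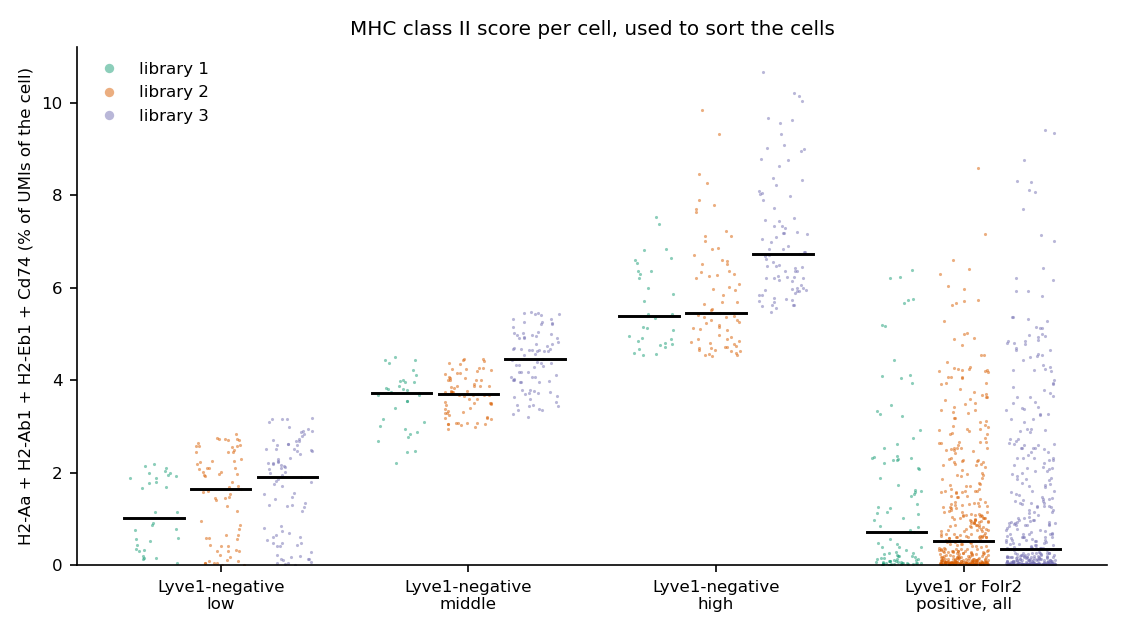
Score of each cell, as the percent of its UMIs from H2-Aa, H2-Ab1, H2-Eb1 and Cd74, for the low, middle and high terciles of the Lyve1-negative macrophages and for all macrophages with a UMI of Lyve1 or Folr2. Points are cells, colours are libraries and black bars are medians. High-side medians lie between 5.39% and 6.72%, low-side medians between 1.03% and 1.91%.

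Both sides carried the macrophage genes they should. Csf1r, the receptor that macrophages need to survive, had 855, 658 and 727 CPM on the high side, against 650, 729 and 894 on the low side. Adgre1, which encodes F4/80, had 289, 244 and 336 CPM on the high side, against 378, 413 and 376 on the low side. For all genes outside the rule CPM is taken over the summed UMIs of a library and side without the genes of the rule and the mitochondrial genes. Cd3e, S100a8 and Epcam, which mark T cells, granulocytes and epithelium, had no UMI on either side, and the B cell genes Cd79a and Ms4a1 had 1 UMI each on each side. The conventional dendritic cell gene Flt3 had 15 UMIs on the high side and 16 on the low side, and Zbtb46 had 14 and 3. The sides differed in depth: the median cell had 13412, 11994 and 9308 UMIs on the high side, against 5108.5, 9533 and 5973 on the low side. The mitochondrial share had medians of 2.57%, 1.84% and 1.93% on the high side, against 4.87%, 2.49% and 2.52% on the low side. Gm42418, a transcript annotated over ribosomal RNA sequence, had 37768, 7634 and 8712 CPM on the high side, against 95653, 10504 and 21215 on the low side. The part of depth, mitochondrial share and Gm42418 in the gene differences below was tested only for depth, by ranking cells within 3 strata of UMI count in each library.

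Summed per library and side and tested with library as a block (edgeR's quasi-likelihood test, Benjamini-Hochberg adjustment over 6432 genes, calls at an adjusted p under 0.05), 177 genes differed between the sides. Of the 6432 genes, 115 were higher on the high side (1.79%) and 62 lower (0.964%), 2.75% in all, and the median log2 fold change was -0.01. By non-overlap alone, 3.05% of genes had all 3 high-side values above all 3 low-side values and 7.51% had them all below. The count rested on library 3 and on the pairing: without replicate 3 it was 11 genes, without replicate 1 it was 357, without replicate 2 it was 115, and without the library block 11. Of the 177 genes, 177, 172 and 174 were still tested without replicates 1, 2 and 3, and 168, 92 and 9 stayed called. All of those tested kept their direction. These fits reuse libraries in which the genes had been called, so a kept direction is no independent support.

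Genes that load peptide onto class II were higher on the high side. Of 11 tested genes of the class II pathway outside the score, 5 were higher, 1 was lower and 5 were not called, against 1.79% higher and 0.964% lower over all genes, and their median log2 fold change was 0.49 against -0.01. H2-DMa (mm10 chromosome 17, 34119541 to 34139101, plus strand) encodes the alpha chain of DM. It had 945, 739 and 925 CPM in the high cells of libraries 1, 2 and 3, against 242, 293 and 306 in the low cells. All high values lay above all low values, and the log2 fold change was 1.70 ± 0.16 (SE, edgeR adjusted p = 1.04e-06). Its paralogous beta chains moved the same way, and as their sequences are close and the treatment of reads that fit both is not given in the sources used here, their split between the copies is uncertain. H2-DMb1 (34153072 to 34160230, plus strand of the same chromosome) had 723, 844 and 919 CPM on the high side and 344, 279 and 235 on the low side, a log2 fold change of 1.67 ± 0.18. H2-DMb2 (34143307 to 34151555, plus strand) was scarce, with 73.5, 41.6 and 18.0 CPM on the high side and 4.85, 6.84 and 5.34 on the low side, a log2 fold change of 2.69 ± 0.45. For both beta chains the sides did not overlap, and edgeR's adjusted p was 7.02e-06 and 0.000907.

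Ciita (chromosome 16, 10480059 to 10528418, plus strand), the transactivator of the class II genes, had 275, 149.9 and 233 CPM on the high side, against 67.9, 60.2 and 71.2 on the low side. Its low-side values lay close together, its high-side values were all above them, and the log2 fold change was 1.73 ± 0.21 (edgeR adjusted p = 2.82e-05). In the middle tercile, which the fit did not use, Ciita had 198, 104 and 152 CPM and H2-DMa 507, 666 and 648, in each library between its low and high values. The 2 endosomal proteases called differed in direction. Ctss, the protease that trims the invariant chain in antigen-presenting cells, had 1986, 1847 and 2487 CPM on the high side and 1547, 1507 and 1685 on the low side (log2 fold change 0.50 ± 0.13, edgeR adjusted p = 0.0358). Lgmn, an asparagine-specific lysosomal protease, had 644, 414 and 556 CPM on the high side and 1759.9, 766 and 1072 on the low side, and fell by 1.00 on the log2 scale (edgeR adjusted p = 0.000567). Not called were the protease gene Ctsl (log2 fold change -0.77 ± 0.26), the RFX subunit gene Rfxap (0.40 ± 0.32), the ubiquitin ligase gene March1 (0.46 ± 0.26), Cd83 (0.49 ± 0.18), whose product opposes that ligase, and the chaperone gene Unc93b1 (0.14 ± 0.16). H2-Oa, H2-Ob, H2-Eb2, Rfx5, Rfxank and Arl14ep were too low to be tested. Without replicate 3 only H2-DMa of the 6 called genes kept its call, and the other 5 had edgeR adjusted p-values between 0.0655 and 0.566. Ctss lost its call under 9 of 18 alternatives. Without replicate 2 it was not called (adjusted p = 0.119) and H2-DMb2 was not tested.

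**Figure D2:**
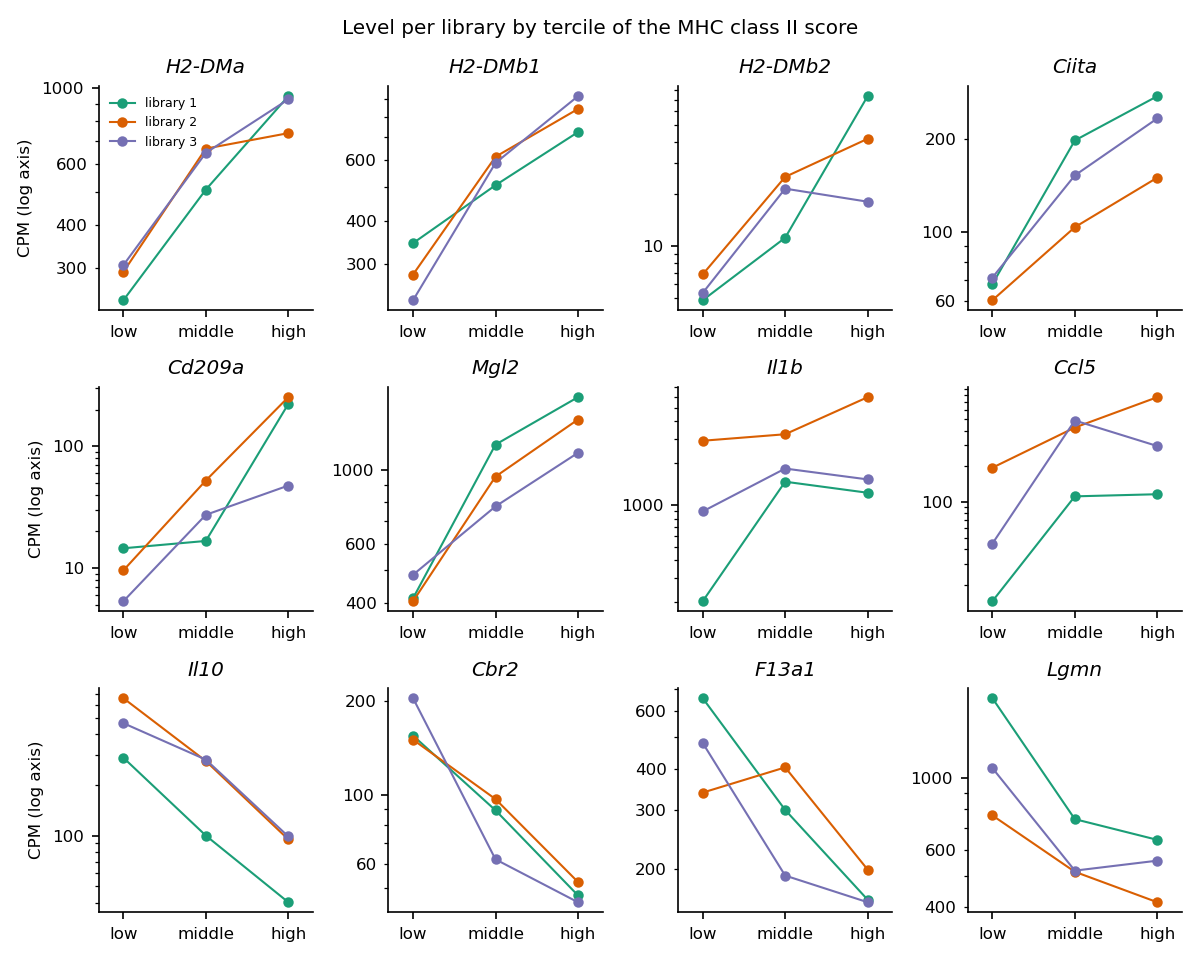
CPM (log axis) of 12 genes in the low, middle and high terciles of the score, with 1 line per library. H2-DMa, H2-DMb1, Ciita and Mgl2 were higher in the high than in the low tercile of every library, and Il10 and Cbr2 were lower in every library.

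Promoters of class II genes are known to carry X and Y boxes, and letters of both were found in some of the windows searched but not in all. They are shown for 2 genes of the score and the 2 DM beta chains, over bases -140 to -31 before the start site, from RefSeq (GRCm38.p6). Capitals mark a match to AACNGATG (a short form of the X box) or TGATTGG (the core of the Y box). Both motifs were searched on both strands.
H2-Eb1 (chr17:34305727-34305836, plus strand): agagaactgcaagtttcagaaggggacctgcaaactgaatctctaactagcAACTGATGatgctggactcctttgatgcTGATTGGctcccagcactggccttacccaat
H2-DMb1 (chr17:34153051-34153160, plus strand): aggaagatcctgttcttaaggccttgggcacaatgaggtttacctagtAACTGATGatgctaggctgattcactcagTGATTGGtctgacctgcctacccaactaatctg
H2-DMb2 (chr17:34145109-34145218, plus strand): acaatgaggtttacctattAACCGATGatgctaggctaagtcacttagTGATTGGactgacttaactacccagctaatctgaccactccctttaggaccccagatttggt
H2-Aa (chr17:34287854-34287963, minus strand): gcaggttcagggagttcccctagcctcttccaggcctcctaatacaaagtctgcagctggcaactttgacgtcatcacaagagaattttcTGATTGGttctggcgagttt
In H2-Eb1, H2-DMb1 and H2-DMb2 the X box began at -89, -92 and -121 and the Y box at -61, -63 and -92. H2-Aa held only the Y box, at -50. Of the 21 genes of the score and the class II pathway list, 14 were in the promoter table, with 18 windows around a start site. Of these windows 10 held either motif and 4 held both, the fourth being that of H2-Eb2. Among 32851 promoter windows of the same length, 2.32% held the X box letters, 7.82% the Y box letters and 0.186% both. The windows of H2-DMa, the gene of the pathway with the smallest adjusted p, held neither. The start sites are those of RefSeq, and the gene positions given above are those of GENCODE. The windows of H2-DMb1 and H2-DMb2 thus lie in part or wholly inside the GENCODE genes. Those of H2-DMa (34122582 to 34122881 and 34125268 to 34125567) lie wholly inside its GENCODE gene. They do not cover the bases before the GENCODE start of H2-DMa. A match is a description of these letters only.

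Outside the class II pathway, the genes with the largest log2 fold changes included lectins, a chemokine and survival genes. Cd209a (chromosome 8, 3743397 to 3748984, minus strand), a mouse relative of the lectin DC-SIGN that marks monocyte-derived and some conventional dendritic cells, had 223, 253 and 47.6 CPM on the high side, against 14.5, 9.58 and 5.34 on the low side. The sides did not overlap, and the log2 fold change of 4.32 ± 0.33 (edgeR adjusted p = 8.17e-08) had the largest size of the 24 genes named by fold change. Its UMIs lay in 19.1% of the high cells and 4.79% of the low cells, and 1 cell held 21.5% of the 344 UMIs of the high side. Mgl2, a galactose-binding lectin, was far more abundant, with 1649, 1413 and 1123 CPM on the high side, against 412, 404 and 484 on the low side (log2 fold change 1.75 ± 0.16, edgeR adjusted p = 5.42e-07). It was found in 88.8% of the high cells and 65.4% of the low cells. The lectin gene Clec4b1 had 201, 294 and 196 CPM on the high side, against 43.6, 107 and 55.2 on the low side, and the aspartic protease gene Napsa 114, 108 and 90.1, against 24.2, 26.0 and 17.8. For all 4 genes every high value lay above every low value.

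The inflammatory genes among them differed between libraries as well as between sides. Ccl5, a chemokine for T cells and monocytes, had 116, 764 and 296 CPM on the high side, against 14.5, 194 and 44.5 on the low side, a log2 fold change of 2.43 ± 0.22 (edgeR adjusted p = 5.29e-07). It was higher in each library, yet the highest low value exceeded the lowest high value. In the middle tercile Ccl5 had 111, 424 and 486 CPM, above its high side in library 3. When cells were ranked within strata of depth, the log2 fold change of Ccl5 was 0.55 (edgeR adjusted p = 0.558). Il1b, a pyrogenic cytokine, had 1225, 5951 and 1527 CPM on the high side, against 204, 2896 and 899 on the low side (log2 fold change 1.42 ± 0.20, edgeR adjusted p = 0.000186), with library 2 high on both sides. Its middle tercile had 1470, 3224 and 1828 CPM, above the high side in libraries 1 and 3. The anti-apoptotic gene Bcl2a1d had a log2 fold change of 1.63 ± 0.24, and Bcl2a1a had 182, 557 and 185 CPM on the high side, against 38.8, 177 and 114 on the low side. As members of a family of near-identical copies their split is uncertain. AA467197 had 126, 194 and 28.3 CPM on the high side, against 48.5, 39.7 and 19.6 on the low side. Of these 12 genes 6 kept their call without replicate 3, with edgeR adjusted p-values of 0.0556 to 0.204 for AA467197, Bcl2a1d, Ciita, Clec4b1, H2-DMb1 and Il1b. Without replicate 2 AA467197 alone lost its call (adjusted p = 0.263), and without replicate 1 none did.

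Among the genes lower on the high side, Il10 (chromosome 1, 131019845 to 131024974, plus strand), the anti-inflammatory cytokine of intestinal macrophages, had the smallest adjusted p. It had 40.3, 95.2 and 99.1 CPM on the high side, against 291, 657 and 467 on the low side, and 100.3, 278 and 283 in the middle tercile. The highest of the high-side values was far under the lowest of the low side, and Il10 fell by 2.48 on the log2 scale (SE 0.20, edgeR adjusted p = 8.17e-08). Every alternative fit kept this call, with log2 fold changes from -3.08 to -1.36. Cbr2, a carbonyl reductase typical of resident macrophages, had 47.4, 52.3 and 45.0 CPM on the high side, against 155, 151 and 205 on the low side (log2 fold change -1.71 ± 0.22, edgeR adjusted p = 9.00e-05). F13a1, the catalytic subunit of clotting factor XIII, had 161, 199 and 158 CPM on the high side, against 654, 339 and 479 on the low side (log2 fold change -1.33 ± 0.21). Neither gene's sides overlapped.

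Other genes lower on the high side serve the matrix, metabolism and growth factor handling. Odc1, the first enzyme of polyamine synthesis, had 30.8, 42.8 and 21.9 CPM on the high side, against 87.3, 185 and 71.2 on the low side (log2 fold change -1.75 ± 0.25, edgeR adjusted p = 0.000275). Slc16a10, a transporter of aromatic amino acids, Cpd, a carboxypeptidase, and Igfbp4, which binds insulin-like growth factors, had log2 fold changes of -1.53 ± 0.27, -1.37 ± 0.23 and -1.27 ± 0.20. The sides of these 4 genes did not overlap. Fn1, the matrix protein fibronectin, had 616, 158 and 97.8 CPM on the high side, against 1377, 569 and 278 on the low side, lower in each library while the libraries overlapped (log2 fold change -1.41 ± 0.17, edgeR adjusted p = 2.82e-05). Its middle tercile had 749, 824 and 397 CPM, above the low side in libraries 2 and 3. Gdf15, a stress-induced growth factor, also overlapped between sides (log2 fold change -1.25 ± 0.25).

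Among the 12 genes with the smallest log2 fold change, single cells weighed heavily for 3. Thbs1, the matrix glycoprotein thrombospondin 1, had 47.4, 2.38 and 14.2 CPM on the high side, against 63.0, 297 and 19.6 on the low side, and 1 cell held 51.5% of its high-side UMIs. Its log2 fold change was -2.62 ± 0.61, and -0.35 without replicate 2 (edgeR adjusted p = 0.871). Mmp19, a matrix metalloproteinase, had 23.7, 14.3 and 12.9 CPM on the high side, against 141, 160.1 and 16.0 on the low side, where 1 cell held 45.8% of its UMIs. Chil3, a chitinase-like protein, had 118, 0 and 0 CPM on the high side, against 252, 17.8 and 48.1 on the low side, and all of its high-side UMIs came from 1 cell. Of the 12 genes with the smallest log2 fold change, Il10, Mmp19 and Gdf15 kept their call without replicate 3. The other 9 then had edgeR adjusted p-values of 0.0655 to 0.465. Without replicate 2 Mmp19, Gdf15 and Thbs1 lost theirs, with adjusted p-values of 0.0564 to 0.871.

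Gene lists put these genes beside their pathways. Of 16 tested genes of the resident programme that accompanies TIMD4, LYVE1 and FOLR2, 7 were lower on the high side, 1 was higher and 8 were not called, against 0.964% lower and 1.79% higher over all genes. The median log2 fold change was -0.68, against -0.01 over all genes. The 7 were the mannose receptor gene Mrc1 (log2 fold change -0.65 ± 0.14), Cbr2, F13a1, the bridging ligand gene Gas6 (-0.93 ± 0.25), the scavenger receptor genes Stab1 (-1.13 ± 0.18) and Cd36 (-1.04 ± 0.17), and the transcription factor gene Maf (-0.84 ± 0.16). Mrc1 had 1116, 736 and 618 CPM on the high side, against 1765, 1152 and 1168 on the low side. The gate had set Lyve1 and Folr2 at 0 in every cell of both sides. The low cells were shallower, so a count of 0 leaves more room there for Lyve1 or Folr2 RNA that was not captured. The part of such cells in these differences was not tested. Mgl2 was the 1 member that was higher. Cd163, a haemoglobin scavenger receptor, had 68.7, 97.6 and 126 CPM on the high side, against 112, 181 and 219 on the low side, and was not called (log2 fold change -0.71 ± 0.19, edgeR adjusted p = 0.0504). Without replicate 3 none of Cbr2, Cd36, F13a1, Maf, Mrc1 and Stab1 was called (edgeR adjusted p from 0.108 to 0.450), and with cells ranked within strata of depth Maf (-0.48) and Mrc1 (-0.27) lost their call. When Timd4 and Cd163 were also required to be at 0 in every cell, Cbr2, Cd36, Maf, Mrc1 and Stab1 were not called (edgeR adjusted p from 0.0681 to 0.316). F13a1, which was lower, and Mgl2, which was higher, kept their call, and Gas6 was not followed across the alternatives. Without barcodes that held a UMI of any of 12 genes of other cell types Cbr2, Cd36, F13a1, Maf and Stab1 were not called (0.0638 to 0.270). Without replicate 2 Cd36 and Mrc1 were not called (0.0512 and 0.0555).

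Genes of monocyte-derived and of CX3CR1-positive macrophages gave a mixed picture. Of 23 tested genes of CCR2-positive and monocyte-derived cells, 5 were higher on the high side (Napsa, Ear2, Cd52, Plbd1 and Lsp1, of which Ear2 has close paralogs that may share its reads), 3 were lower (Thbs1, Chil3 and Fn1) and 15 were not called, against 1.79% higher and 0.964% lower over all genes. The list's median was 0.27. Ccr2 itself, the chemokine receptor of recruited monocytes, had 1448, 493 and 588 CPM on the high side, against 1159, 417 and 443 on the low side, higher in each library but not called (log2 fold change 0.41 ± 0.15, edgeR adjusted p = 0.165). Of 19 tested genes of CX3CR1-positive macrophages near nerves, 3 were higher (Itgax, Cd9 and Apoe), none was lower and 16 were not called, against the same 1.79% and 0.964%. Itgax, which encodes CD11c, had 130.3, 72.6 and 57.9 CPM on the high side, against 38.8, 47.9 and 19.6 on the low side (log2 fold change 1.25 ± 0.28), and was not called without replicate 3 (edgeR adjusted p = 0.411), 1 of the 9 of 16 alternatives under which its call was lost. Apoe, a lipid carrier, had 7873, 5427 and 12411 CPM on the high side, against 3999.7, 4278 and 8252 on the low side (log2 fold change 0.73 ± 0.12). Cx3cr1, the fractalkine receptor, had 524, 213 and 435 CPM on the high side, against 606, 207 and 607 on the low side, with opposite signs among libraries (log2 fold change -0.13 ± 0.17, edgeR adjusted p = 0.798).

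Genes of T cell contact and interferon had medians above 0 with few calls, beside 1.79% higher and 0.964% lower over all genes. Of 14 tested co-signal genes 1 was higher, Tnfsf9, which encodes the ligand of 4-1BB (log2 fold change 0.62 ± 0.16). Cd86, the ligand of CD28, had 197, 255 and 149 CPM on the high side, against 92.1, 203 and 98.0 on the low side, and was not called (log2 fold change 0.69 ± 0.20, edgeR adjusted p = 0.0576). Of 20 tested class I genes 1 was higher, H2-T23, a non-classical class I molecule, with 237, 275 and 391 CPM on the high side, against 116, 127 and 128 on the low side (log2 fold change 1.38 ± 0.19). Of 20 tested interferon genes 2 were higher, Ifitm3 (0.91 ± 0.15) and Isg15 (0.88 ± 0.23), and none was lower. The medians of the co-signal, class I and interferon lists were 0.37, 0.28 and 0.47. Without replicate 3 Tnfsf9, H2-T23 and Ifitm3 were not called (edgeR adjusted p = 0.450, 0.150 and 0.293). The call of Tnfsf9 was lost under 14 of 18 alternatives, with log2 fold changes down to 0.07 and adjusted p-values up to 0.994, against 2 of 18 for H2-T23 and 3 of 18 for Ifitm3.

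Of 23 tested pro-inflammatory genes 6 were higher on the high side (Il1b, Il1a, Bcl2a1d, Bcl2a1b, Cd14 and Tnfsf9), 1 was lower (Cxcl1) and 16 were not called, with a median of 0.08, beside 1.79% higher and 0.964% lower over all genes. Cxcl1, a neutrophil chemokine, had 706, 1117 and 293 CPM on the high side, against 688, 2443 and 732 on the low side (log2 fold change -0.74 ± 0.18, edgeR adjusted p = 0.0293), and was higher in library 1. Its sign turned when cells were split at the median score, to 0.15 (edgeR adjusted p = 0.694), and it lost its call without replicate 2 (edgeR adjusted p = 0.314) and without replicate 3 (0.628). Of 15 tested chemokines Ccl5 and Ccl12 were higher, and Cxcl1 and Pf4 were lower. Pf4, a platelet-type chemokine that resident macrophages also make, had 462, 771 and 1087 CPM on the high side, against 1294, 1509 and 2379.5 on the low side (log2 fold change -1.09 ± 0.15, edgeR adjusted p = 0.000125). It was not called without replicate 3 (edgeR adjusted p = 0.130), without the library block or without barcodes with UMIs of other cell types. Of 21 tested genes of IL-10, TGF-beta and alternative activation, Mgl2 was higher and Il10, Chil3 and Mrc1 were lower, with a median of -0.13.

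**Figure D3:**
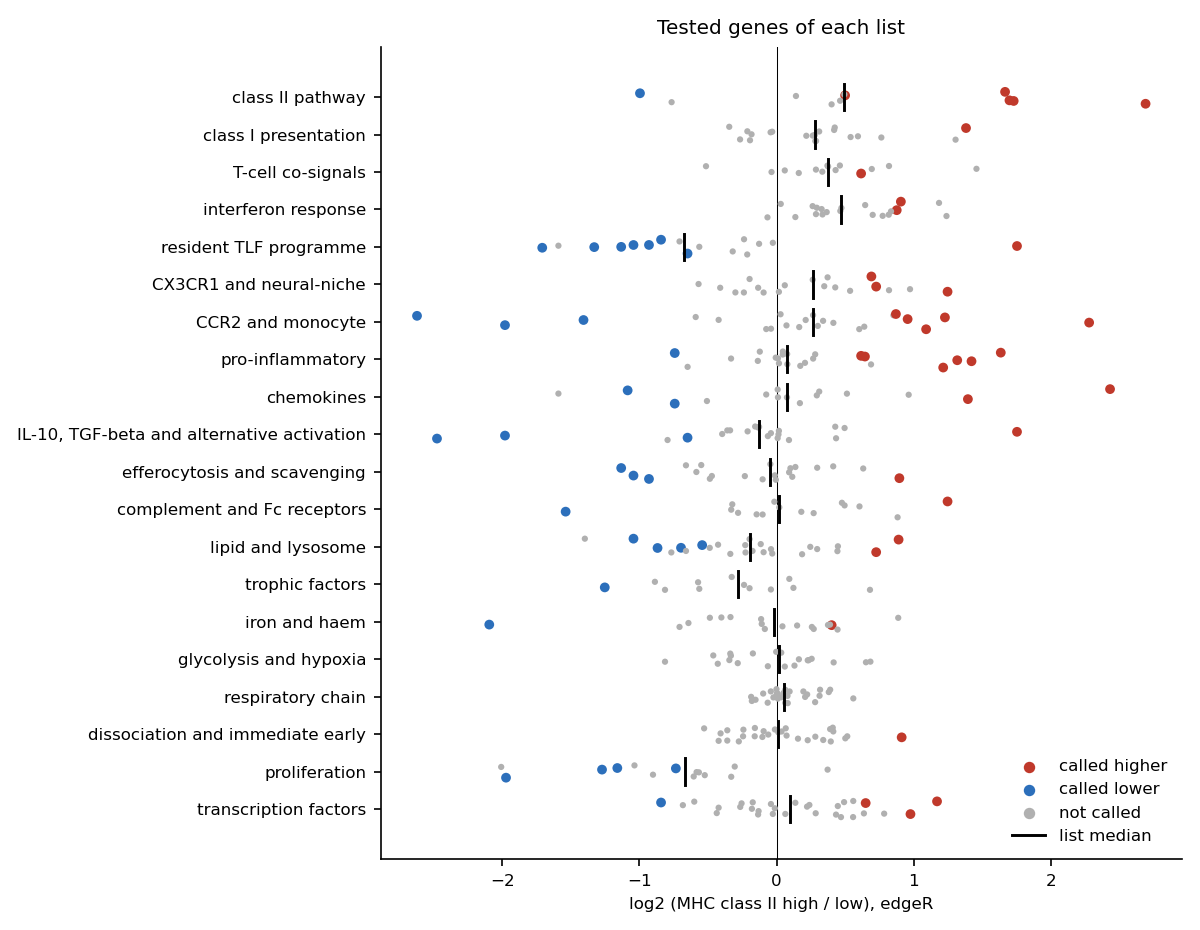
Log2 fold change (high over low, edgeR) of the tested genes of 20 lists, with called genes in red (higher) or blue (lower), other genes in grey and list medians as black bars. The class II pathway list has 5 red points and the resident programme list 7 blue points.

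Lists of clearance, lysosome and iron genes had medians near 0 with calls in both directions, beside 1.79% higher and 0.964% lower over all genes. Of 21 tested genes of efferocytosis and scavenging, the receptor gene Axl was higher (log2 fold change 0.90 ± 0.22) and Stab1, Cd36 and Gas6 were lower. Of 25 tested lipid and lysosome genes Cst3 and Apoe were higher, and Cd36 and the lysosomal genes Ctsb (-0.54 ± 0.14), Ctsd (-0.70 ± 0.16) and Grn (-0.87 ± 0.16) were lower, with a median of -0.20. Cst3, an inhibitor of cathepsins that dendritic cells make in quantity, had 4665, 5719 and 6045 CPM on the high side, against 2007, 3679.6 and 4100.1 on the low side (log2 fold change 0.89 ± 0.12, edgeR adjusted p = 0.000186). Its middle tercile had 1936, 3223 and 3896 CPM, below the low side in each library. Of 18 tested iron and haem genes the ferritin gene Fth1 was higher (0.40 ± 0.10) and the transferrin receptor gene Tfrc lower (-2.10 ± 0.39). Of 15 tested complement and Fc receptor genes Itgax was higher and C3 lower (-1.54 ± 0.37). Of 12 tested trophic factor genes Gdf15 was lower. Bmp2, the factor by which muscularis macrophages signal to enteric neurons, had 73.5, 89.2 and 18.0 CPM on the high side, against 169.7, 101 and 81.9 on the low side and was not called (log2 fold change -0.89 ± 0.29, edgeR adjusted p = 0.120). Without replicate 3 Axl, C3, Cst3, Fth1 and Tfrc were not called (edgeR adjusted p from 0.130 to 0.602). Without replicate 1 Axl and Tfrc were not called either, with edgeR adjusted p-values between 0.0505 and 0.0828. C3 and Fth1 were not called without replicate 2 (edgeR adjusted p = 0.0738 and 0.0527). The calls of Fth1, Axl and Tfrc were lost under 12 of 18, 10 of 18 and 7 of 15 alternatives.

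Some proliferation genes were lower on the high side. Of 14 tested genes Mki67, Top2a, Stmn1 and Tuba1b were lower, none was higher and 10 were not called, against 0.964% lower and 1.79% higher over all genes, with a median log2 fold change of -0.67. Top2a, the topoisomerase of dividing cells, had 2.37, 21.4 and 32.2 CPM on the high side, against 4.85, 82.1 and 157 on the low side and 94.7, 142 and 136 in the middle tercile (log2 fold change -1.97 ± 0.29, edgeR adjusted p = 0.000346). Mki67 had 9.48, 60.7 and 38.6 CPM on the high side, against 0, 127 and 159 on the low side, where library 1 had no UMI (log2 fold change -1.27 ± 0.31). In library 1 neither gene was abundant on either side, and both lost their call without replicate 3 (edgeR adjusted p = 0.694 for Mki67 and 0.267 for Top2a), Mki67 also without replicate 2 (0.0851). At the full depth of the cells, a UMI of Top2a was held by 6.38% of the high cells and 10.1% of the low cells. On the high side 1 cell held 45.5% of its 44 UMIs. A UMI of Mki67 was held by 18.6% of the high cells and 16.5% of the low cells, but the high cells were deeper. With all cells thinned to an equal number of UMIs, Mki67 was found in 3.1, 5.63 and 5.88% of the high cells of libraries 1, 2 and 3. The low cells then had 0, 12.7 and 8.24%. Its thinned share thus differed in the same direction as its CPM in each library. Both genes also lost their call when Timd4 and Cd163 were required at 0 and when barcodes with UMIs of other cell types were left out (edgeR adjusted p from 0.226 to 0.781).

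Of 30 tested transcription factor genes Runx3 (1.17 ± 0.25), Batf3 (0.98 ± 0.26) and Etv3 (0.65 ± 0.17) were higher on the high side and Maf was lower. The shares over all genes were 1.79% higher and 0.964% lower. Runx3 had 118, 114 and 95.2 CPM on the high side, against 29.1, 62.9 and 51.7 on the low side, without overlap, and lost its call without replicate 3 (edgeR adjusted p = 0.269). Of 29 tested genes of dissociation and immediate early response, the metallothionein gene Mt1 was higher (0.91 ± 0.15) and 28 were not called. None of 20 glycolysis and hypoxia genes and none of 28 respiratory chain genes was called by edgeR or by DESeq2, with medians of 0.02 and 0.06, and 3 and 2 of them had an unadjusted p under 0.05 by edgeR. Of 83 ribosomal protein genes, a list chosen after values were seen, 30 were higher and none lower, against 1.79% and 0.964% over all genes, with a median of 0.44. Ribosomal protein genes summed to 154988, 214318 and 210369 CPM on the high side, against 110847, 182542 and 173398 on the low side. Their part in the other differences was not tested.

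Among markers of other cell types, calls fell on 4 genes, beside 1.79% higher and 0.964% lower over all genes. Of 23 dendritic cell markers 5 were tested and 2 were higher, Cd209a and Ccl5, and the list summed to 558 to 1680 CPM on the high side, against 290.3 to 479 on the low side. Of 13 markers of group 2 innate lymphoid cells 5 were tested and Rora was lower (-1.39 ± 0.35), with sums of 340 to 429 CPM on the high side and 274 to 528 on the low side. The call of Rora was lost under 7 of 14 alternatives, among them without replicate 3 (edgeR adjusted p = 0.499) and with doublets removed (0.470). Of 13 fibroblast markers 2 were tested and C3 was lower, with sums of 153 to 363 CPM on the high side and 196 to 456 on the low side. Of the B cell, granulocyte, smooth muscle and nerve or pacemaker cell markers 2, 2, 4 and 1 were tested and none was called. Of the T or NK, mast cell, endothelial and epithelial markers none was abundant enough to be tested, and the largest of their sums in any profile was 38.8 CPM. When barcodes with any UMI of 12 genes of other cell types, Cd209a and Zbtb46 among them, were left out before the split, 18, 43 and 61 cells a side remained and 19 genes were called, 11 higher and 8 lower. H2-DMa (1.56), Ciita (1.56), Mgl2 (1.36), Il10 (-2.07) and Fn1 (-1.47) were among these by log2 fold change, and Napsa (1.01) and Il1b (0.72) were not.

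A higher sum can come from more cells or from more RNA per cell, so the share of cells with a UMI was taken after every cell had been thinned to 2000 UMIs. H2-DMa was found in 71.9, 77.5 and 83.5% of the high cells of libraries 1, 2 and 3, against 25.0, 28.2 and 42.4% of the low cells, a difference of 45.8 ± 4.17 percentage points (SD, 3 libraries). Il10 was found in 3.12, 5.63 and 5.88% of the high cells, against 15.6, 28.2 and 24.7% of the low cells, and the difference lay between -22.5 and -12.5 points. In T or NK cells, whose median depth before thinning was 8542, 6811 and 6597 UMIs, H2-DMa was found in 1.73% and Il10 in 2.02% over the 3 libraries together. By library the Il10 share of T or NK cells was 3.88, 2.33 and 0% (0 of 115 cells, exact 95% upper bound 3.16%), so that of the high side was under it in library 1 and above it in libraries 2 and 3, with overlapping exact intervals in each library. T cells can also express Il10. Cd209a was found in 6.25, 12.7 and 3.53% of the high cells, against 3.12, 2.82 and 0% of the low cells and 0.288% of T or NK cells. Ccr2 was found in 65.6, 49.3 and 49.4% of the high cells, against 59.4, 40.8 and 41.2% of the low cells, and in 60.8% of T or NK cells, where it is known to be expressed and so gives no background. Each of these 4 genes moved the same way in all 3 libraries, for which an exact sign-flip test over 3 libraries cannot give a p below 0.25. The shares of Cx3cr1, Mrc1, Cd163, Il1b, Cd86, Ciita, Bmp2, Mki67, Flt3 and Timd4 did not move the same way in all 3 libraries. Ciita differed by 5.75 points after thinning and by 45.5 points without it.

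**Figure D4:**
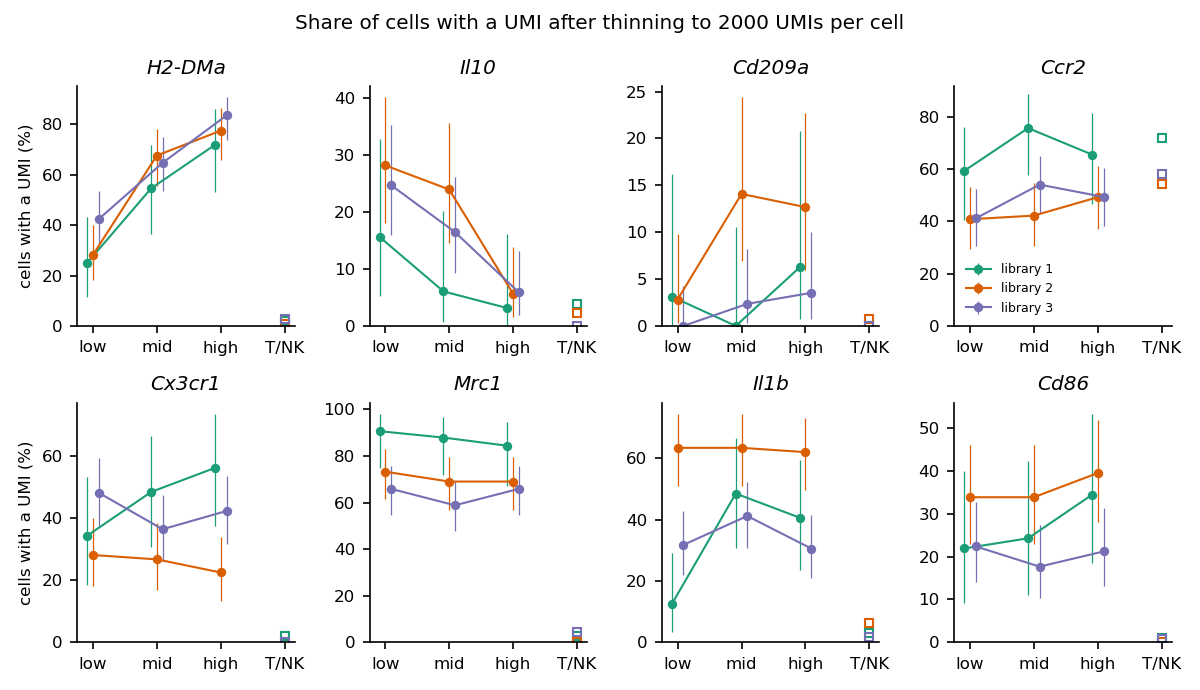
Share of cells with at least 1 UMI (%) after thinning to 2000 UMIs per cell, for 8 genes in the low, middle and high terciles, with 1 line per library, exact 95% binomial intervals for counting error only, and open squares for T or NK cells. H2-DMa is higher and Il10 lower in the high than in the low tercile of each library.

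Whether the same genes follow class II in the macrophages that the gate left out was asked with the 939 macrophages that held a UMI of Lyve1 or Folr2 (99, 423 and 417), split into terciles in the same way. Their split spanned a wider ratio, with median scores of 3.22%, 2.64% and 2.94% on their high side and 0.0460%, 0.0425% and 0.0234% on their low side. In 1 edgeR fit of all 12 profiles, the difference between high and low was itself different between the gates for 57 of 7958 genes (0.716%). For 8 of these genes (0.101%) the log2 fold change was more positive in the Lyve1-negative macrophages, and for 49 (0.616%) it was more negative. In the Lyve1 or Folr2 positive macrophages alone the fit called 4.41% of genes higher and 2.87% lower. The count was 91, 28 and 23 without replicates 1, 2 and 3, and 31 with DESeq2. Without the library blocks edgeR called 0 genes, and 279 had an unadjusted p under 0.05.

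Il10 took opposite signs in the Lyve1-negative and the other macrophages. In Lyve1-negative macrophages its log2 fold change was -2.45, and in Lyve1 or Folr2 positive macrophages it was 0.84, with 1702, 839 and 179 CPM on their high side and 778, 425 and 170.4 on their low side. The difference of the log2 fold changes was -3.29 ± 0.30 (SE, edgeR adjusted p = 3.01e-06). Odc1 also took opposite signs (-1.73 and 1.02, difference -2.74 ± 0.33), as did Fn1 (-1.38 and 2.40, difference -3.78 ± 0.59), Mmp19 (-2.42 and 0.83) and Cxcl1 (-0.71 and 0.79). In the Lyve1 or Folr2 positive macrophages the changes of Il10, Odc1, Fn1 and Cxcl1 were called. That of Mmp19 was not (edgeR adjusted p = 0.134), and in library 1 it had 44.3 CPM on their high side and 45.7 on their low side. Fn1 had 431, 233 and 178 CPM on the high side of the Lyve1 or Folr2 positive macrophages, against 338, 33.6 and 3.51 on their low side. Without replicate 2 the differences of Fn1, Mmp19 and Cxcl1 were not called (edgeR adjusted p from 0.0861 to 0.441), and without replicate 3 that of Cxcl1 (0.0817).

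Of the genes more positive in the Lyve1-negative macrophages, Cd209a showed the largest difference among those with a mean of at least 50 CPM, 4.05 ± 0.40 (edgeR adjusted p = 8.00e-06). In the Lyve1 or Folr2 positive macrophages it had 192, 86.5 and 64.1 CPM on the high side, against 160.1, 65.3 and 66.8 on the low side (the sides overlapped). Wfdc17, a small secreted protein of myeloid cells, had a log2 fold change of 1.05 in Lyve1-negative and -0.76 in Lyve1 or Folr2 positive macrophages (difference 1.81 ± 0.33). Fgfr1, Pros1 and Tns1 differed by 2.12 ± 0.37, 1.57 ± 0.29 and 1.66 ± 0.30. Their log2 fold changes were 0.89, 0.44 and -0.08 in Lyve1-negative and -1.24, -1.13 and -1.74 in Lyve1 or Folr2 positive macrophages. Class II genes went the same way in both gates, by less in the Lyve1-negative cells: H2-DMa had log2 fold changes of 1.73 and 3.42 (difference -1.70 ± 0.24, edgeR adjusted p = 0.00117), and Ciita 1.76 and 5.08 (difference -3.32 ± 0.50). The same held for Lyz1, which encodes a lysozyme, with 0.67 and 5.44, for the ribonuclease gene Ear2, with 1.25 and 4.70, and for Ccr2, with 0.44 and 3.33. Lpl, lipoprotein lipase, and Il1rn, the antagonist of the interleukin 1 receptor, had -0.74 and -0.77 in Lyve1-negative and 3.03 and 2.73 in Lyve1 or Folr2 positive macrophages. In Lyve1-negative macrophages Il1rn had 61.6, 242 and 41.2 CPM on the high side, against 38.8, 316 and 214 on the low side, so library 1 went the other way. Lpl had 1047, 67.8 and 65.6 CPM there on the high side, against 1115, 312 and 85.5 on the low side. The part of the wider score ratio of the Lyve1 or Folr2 positive macrophages in these differences was not tested. Without replicate 3 the differences of Ciita, Ear2, Fgfr1, Il1rn, Pros1 and Wfdc17 were not called (edgeR adjusted p from 0.0901 to 0.407), and without replicate 2 those of Fgfr1, Il1rn, Pros1 and Tns1 (0.0947 to 0.305).

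**Figure D5:**
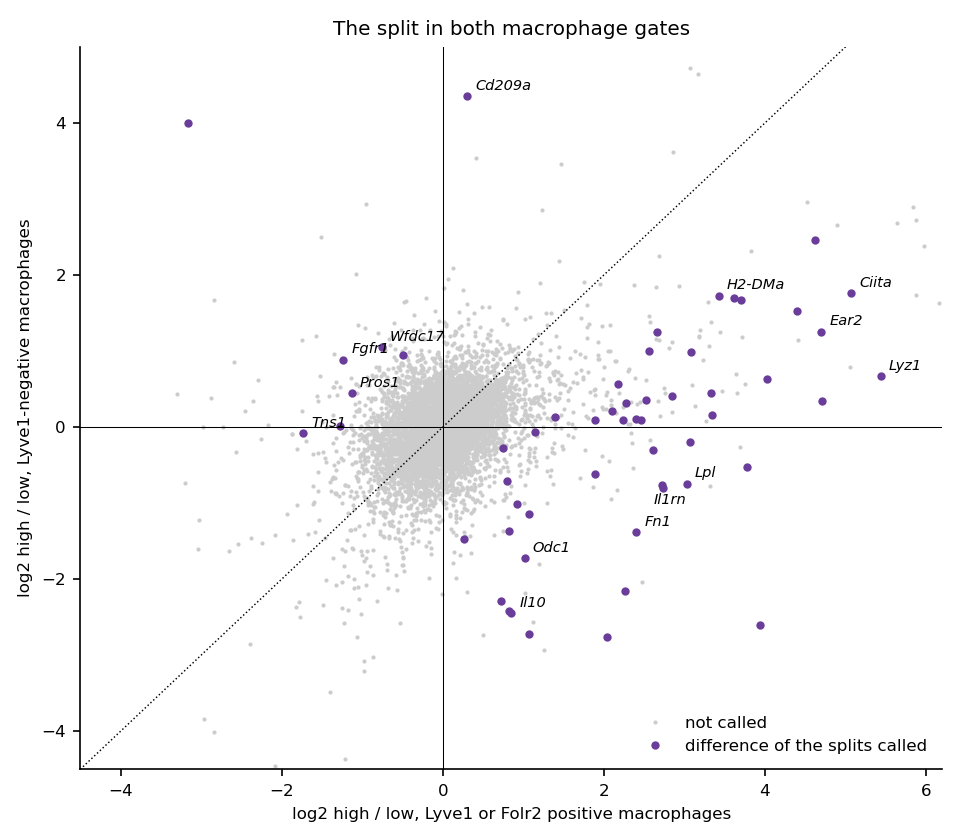
Log2 fold change (high over low) of each gene in Lyve1-negative macrophages (vertical axis) and in Lyve1 or Folr2 positive macrophages (horizontal axis), from 1 edgeR fit of 12 profiles. Purple points are the genes whose difference between the gates was called, the dotted line marks equal values, and 12 genes lie outside the axes. Il10, Odc1 and Fn1 lie below 0 on the vertical and above 0 on the horizontal axis.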

How the data were processed

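The 3 libraries held CD45+ cells of the stomach muscle of NonDiabetic mice. For each library the authors deposited a matrix of raw UMI counts over 31053 genes. The submitters' processing notes name Cell Ranger 3.1 and mm10. Versions differed between libraries, per the file headers (replicate 1, 3.0.0, against 3.1.0 for the other two). Which annotation release was used, and what was done with multi-mapping reads, is not given in the sources used. No deposited barcode had fewer than 500 UMIs.

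Cells were chosen by the gate and score given in the report, and 681, 1235 and 1204 barcodes passed the UMI minimum, 498, 1105 and 1072 the mitochondrial limit and 196, 636 and 672 the C1q minimum. The members, gene lists and tests were chosen with earlier results of these data known. Counts were summed per library and side (206266 to 840502 UMIs a profile), without the 22 genes of the rule (the 9 score, C1q and gate genes and 13 mitochondrial genes). They were tested with edgeR 4.0.16 (filterByExpr, TMM factors, quasi-likelihood fit, library as block), two-sided, in R 4.3.3. Genes outside the rule belong to the same cells as the score, so they are genes that differ between the sides and not effects of a condition. The difference between the gates was an interaction term over 12 profiles. In data simulated for the main comparison on 6364 genes, 60.4% of 91 genes changed by a log2 fold of 1 and 99.1% of 109 changed by 2 were recovered, with 9 false calls. The changed genes were drawn from those above a minimum UMI total, and every gene was given the same spread between profiles. Scarcer changed genes and genes with UMIs concentrated in single cells were not simulated.

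Named genes were the 12 with the largest and the 12 with the smallest log2 fold change among called genes of 1 sign in all libraries and a mean of at least 50 CPM, the tested class II genes, the called genes with the largest and smallest log2 fold change of each other list (mean at least 10 CPM), the 14 genes of the share comparison, and the 5 genes at each end of the interaction (mean at least 50 CPM). Other called list members are named to spell out a count. Gm42418, Apoe and other genes outside this rule were chosen after their values were seen.

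Shares used cells thinned to 2000 UMIs. T or NK cells held at least 3 UMIs of T cell receptor genes and at most 2 of C1q. A gate for group 2 innate lymphoid cells also held Cd209a and class II, so it was not used as background. Intervals cover counting error only. Doublets were not removed in the main fit. Python 3.11.15, scanpy 1.11.5 (scrublet), scipy 1.17.1 and DESeq2 1.42.0 were used besides. Gene positions came from a GRCm38 annotation matched by gene identifier, and promoters from the RefSeq table.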

Additional observations from a re-analysis of the deposited data

Results flagged for a closer look

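The difference between the high and the low side was itself different between the Lyve1-negative and the Lyve1 or Folr2 positive macrophages for 10 named genes, by a test of that difference (edgeR). The value given is the log2 fold change in Lyve1-negative minus that in Lyve1 or Folr2 positive macrophages. More negative values were -4.77 for Lyz1, -3.78 for Fn1, -3.77 for Lpl, -3.49 for Il1rn and -3.44 for Ear2, with edgeR adjusted p-values of 1.15e-06, 0.00197, 0.00186, 0.0160 and 0.00186. More positive values were 4.05 for Cd209a, 2.12 for Fgfr1, 1.81 for Wfdc17, 1.66 for Tns1 and 1.57 for Pros1, with edgeR adjusted p-values of 8.00e-06, 0.00504, 0.00617, 0.00571 and 0.00738. The score of the Lyve1 or Folr2 positive macrophages spanned a wider ratio between their sides, and its part in these values was not tested.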

How the results depend on the processing

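Both sides of a split come from 1 library, so the main fits carry the library as a block. With no replicate block the 177 genes called between the sides became 11 (9 higher, 2 lower), all 11 of them among the 177, and the 57 genes of the difference between the gates became 0. Other settings moved the first count to 67 with DESeq2 (50 higher, 17 lower), 329 with no filter on low counts (201 and 128), 106 for the outermost of 6 bins (58 and 48), 97 for cells thinned to 2000 UMIs (59 and 38), 19 without barcodes with UMIs of other cell types (11 and 8), 300 with doublets removed (173 and 127) and 29 with Timd4 and Cd163 at 0 too (20 and 9). Leaving out a replicate gave 11 to 357 genes. RLE factors gave 210, at least 30 C1q UMIs 119, at least 4000 UMIs 149, ranking within strata of depth 137, the genes of the rule kept in 210, and the added removal of shared barcodes 207. A split at the median gave 131, of which 54 were higher and 77 lower. These counts hold genes that the main fit did not call. Of the main fit's 177 genes, 98 stayed called within strata of depth, 95 at 30 C1q UMIs, 108 at 4000 UMIs and 78 at the median split. With thinned cells 70 of the 126 still tested did, with RLE factors 177 and with the genes of the rule kept in 175. With DESeq2 67 stayed called, and 29 of 165 tested did with Timd4 and Cd163 at 0 too. Without barcodes with UMIs of other cell types 16 of 154 tested did, and without replicate 3 9 of 174. The difference between the gates gave 31 genes with DESeq2, 160 with no filter on low counts, 56 with RLE factors and 23 to 91 without a replicate.

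Of the 177 genes, all that were tested kept their direction under each alternative, except 1 at 4000 UMIs, 1 at the median split, 2 within strata of depth and 2 without barcodes of other cell types. The alternatives reuse the libraries in which these genes were called, so a kept direction is no independent support. Cxcl1, -0.74 in the main fit, was 0.15 (log2) at the median split. Mgl2, H2-DMa and Il10 kept their call under all 18 alternatives. Settings that leave fewer cells also test fewer genes; the cause of the other changes was not tested. Shares of cells were also taken without thinning, a choice made after seeing the data. The low side of library 1 held 206266 UMIs, the smallest profile, where 1 UMI is worth 4.85 CPM.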
